A study of Mus musculus with 28 samples.

Results

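Cytosolic ribosomal protein genes were followed across the lungs of newborn mice that lacked HRas, NRas or both small GTPases, with and without antenatal N-acetyl cysteine (NAC). A member was any gene whose single symbol in the platform annotation begins with Rpl, Rps or Rplp and a number, leaving out ribosomal S6 kinases (Rps6k) and symbols that contain -ps. The brightest of a gene's rows in the array table stood for the gene. The rule found 68 genes among the 22180 genes tested, and these 68 had 108 rows with 1 symbol. By name, 32 are proteins of the large subunit, 22 of the small subunit and 3 of the stalk. Another 9 are paralogs or copies (Rpl10l, Rpl22l1, Rpl32l, Rpl39l, Rpl3l, Rpl6l, Rpl7l1, Rps27l and Rps4l). The remaining 2, Rps19bp1 and Rps23rg1, carry a matching symbol but do not encode ribosomal proteins. A further 14 symbols of this kind, Rpl10 among them, occurred only in rows shared by several symbols and are not members.

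The cytosolic ribosome joins a small subunit, which reads the mRNA, and a large subunit, which forms the peptide bond. Its proteins are made in near equal amounts, and in mammals most of their mRNAs begin with a run of pyrimidines (the 5′ terminal oligopyrimidine, or TOP, motif) through which mTOR signalling controls their translation more than their mRNA level. Ribosomal proteins that are not built into subunits can bind Mdm2, the ubiquitin ligase of p53, and Rpl5 and Rpl11 are the best known of these. Ribosomal protein genes also have many processed copies elsewhere in mammalian genomes and hold small nucleolar RNAs (snoRNAs) in their introns.

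Each of 28 arrays measured RNA from the lungs of 1 mouse collected on postnatal day 0. The untreated groups were Control (3 arrays), HRas-KO (3), NRas-KO (3) and the double knockout DKO (5). The groups whose mothers received 0.5% NAC during pregnancy were DKO+NAC (4), Control+NAC (4), NRas-KO+NAC (3) and HRas-KO+NAC (3). The labels do not give the strain, the genotype of the Control animals or the alleles, and whole lung was used, so fewer cells of a type and less RNA per cell cannot be told apart. A shared treatment note names fewer samples as exposed than the source labels do, and the titles of the 3 HRas-KO+NAC arrays do not mention NAC, unlike those of the other exposed groups. The source labels were followed. Levels are RMA values on the log2 scale, differences are differences of group means on that scale, and a gene was called at an adjusted p under 0.05 in limma over all genes tested.

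Nras lay between 7.40 and 7.80 on the arrays that lack it and at 8.07 or above on the others, except that DKO+NAC replicate 4 lay at 8.08. Where leaving that array out of a result with DKO+NAC changes a call or a count, the value without it is given. The HRas gene was not analysed here. Titles hold 10 starts of animal codes, none of them found in both arms and none shared between untreated DKO and another group, so NAC and code start, and DKO and code start, cannot be told apart. All HRas-KO+NAC arrays have the start T453, most Control+NAC arrays T445 and most DKO arrays G185. The main fit took arrays as independent, and the estimated correlation within a code start was 0.12. The mean level of 14 lung epithelium markers lay between 9.95 and 10.4 on every array. No 2 arrays held identical values.

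Where a member's row sits on the array bears on every value below. Row numbers run along the genome, and 98.3% of the 23220 other rows with a known place were numbered among rows of genes near their own (at least 3 of the neighbouring rows, up to 5 on each side, from genes within 5 Mb). The brightest row met this for 44 of the 68 members and not for the other 24. The brightest Rplp0 row was numbered between rows of Cdh11 and Tk2, the brightest Rps28 row between Ficd and Iscu, and the only Rps13 row between Tyr and Tmem135. A dimmer row at the own locus existed for 18 of these 24 members, and the remaining 6 (Rpl15, Rpl23a, Rpl28, Rpl39, Rps13 and Rps6) had none. Across the 28 arrays, deviations from group means in both rows of these 18 genes correlated between -0.59 (Rpl7) and 0.75 (Rpl29), with a median of 0.12. Mean levels were 3.07 (Rps26) to 8.20 (Rpl29) in the own-locus rows and 7.25 (Rps18) to 12.7 (Rpl21) in the brightest. A weak correlation with a dim row cannot tell whether the brighter row follows the gene. Rps12, bright at its own locus (11.3), correlated at 0.90 to 0.93 with its rows elsewhere. Rplp1 (11.3) correlated at 0.34 with a dimmer row elsewhere (6.06). The array's probe positions were not used here, and whether the rows placed elsewhere read processed copies was not tested. A member named below without a remark on its row was read at its own locus.

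Promoters of 5 members whose own-locus row was called in a comparison are shown because they are the members the results rest on. Each window holds 70 bases before the annotated start and 30 from it, read 5′ to 3′ on the gene's strand, from RefSeq on GRCm38.p6. They lie at chr12:28635924-28636023 (Rps7, minus strand), chrX:102189362-102189461 (Rps4x, minus), chr9:44407644-44407743 (Rps25, plus), chr9:64173317-64173416 (Rpl4, plus) and chr5:107900458-107900557 (Rpl5, plus). Capitals mark CTTTC, a short pyrimidine run, and CGGAAG, the core of the sites that ETS factors bind, on either strand, and the Rps25 window shown holds neither.
Rps7: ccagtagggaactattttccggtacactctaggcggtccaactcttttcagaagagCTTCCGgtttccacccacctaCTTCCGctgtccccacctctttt
Rps4x: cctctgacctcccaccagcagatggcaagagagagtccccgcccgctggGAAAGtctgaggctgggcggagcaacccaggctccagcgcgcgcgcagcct
Rps25: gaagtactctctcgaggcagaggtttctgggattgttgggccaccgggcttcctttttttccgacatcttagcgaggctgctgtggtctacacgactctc
Rpl4: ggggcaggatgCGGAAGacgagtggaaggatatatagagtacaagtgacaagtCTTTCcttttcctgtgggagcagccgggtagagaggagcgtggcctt
Rpl5: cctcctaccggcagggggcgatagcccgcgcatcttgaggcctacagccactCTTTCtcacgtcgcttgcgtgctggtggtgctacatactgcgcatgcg
Of the 68 members, 53 had a promoter in the RefSeq table, 1 window of 300 bases a gene (250 before the start and 50 from it). CGGAAG or its reverse complement was in 62.3% of the members' windows and in 17.1% of the 26972 windows of other genes. For CTTTC the shares were 77.4% and 57.1%, for AAGATGG, a YY1 motif, 11.3% and 6.47%, and for TATAAA 9.43% and 14.2%. All were searched on both strands, and the motifs do not contain each other. A match is a run of letters, not a bound site.

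The loss of HRas or of NRas alone moved no member past the test in untreated lung. In both comparisons 0 of 68 members and 0% of all genes were called, and at an unadjusted p under 0.05 there were also 0 members, against 190 genes for HRas-KO and 231 for NRas-KO. Members had a median difference of -0.04 in HRas-KO, with 19 positive and 49 negative, where the median over all genes was 0.01. In NRas-KO the median was 0.02, with 39 positive. The smallest p-values belonged to Rps13 (-2.40 ± 1.34 SE), Rpl5 (0.29 ± 0.17) and Rpl39l (0.20 ± 0.13) in HRas-KO and to Rpl37 (-0.32 ± 0.20), Rplp2 (-0.32 ± 0.20) and Rps4x (0.15 ± 0.10) in NRas-KO, all with an adjusted p of 1.

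In the double knockout 2 of 68 members were called, both higher (2.94% of members). Of all genes 3.83% were called, 2.48% higher and 1.35% lower. The median difference of the members was 0.00 (all genes 0.02), with 35 positive and 33 negative. Rps25, a small subunit protein needed by some viral internal ribosome entry sites, was read at its own locus. It measured 8.14, 7.99 and 8.11 in Control and 8.37, 8.58, 8.74, 8.58 and 8.53 in DKO. Every DKO array was above every Control array, and the difference was 0.48 ± 0.13 (SE, adjusted p = 0.0333), a call kept in 3 of the 8 fits that left out 1 array. HRas-KO (7.83 to 8.13) and NRas-KO (7.93 to 8.27) arrays stayed below all DKO arrays. Under NAC the groups overlapped: Control+NAC measured 8.32, 8.35, 8.58 and 8.41 and DKO+NAC 8.12, 8.72, 8.64 and 8.59.

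Rplp0 encodes the scaffold of the ribosomal stalk and is a common reference gene in expression studies. Its brightest row measured 8.99, 8.78 and 8.79 in Control and 9.48, 9.38, 9.22, 9.75 and 9.70 in DKO. The groups did not overlap, and the difference was 0.65 ± 0.16 (adjusted p = 0.022), a call kept in 4 of 8 fits without 1 array. With NAC all 4 DKO arrays were lower, at 8.53, 8.57, 8.62 and 8.44, a difference of -0.97 ± 0.15 from untreated DKO (adjusted p = 0.000144), or -0.93 ± 0.16 without DKO+NAC replicate 4. The comparisons share the untreated DKO arrays. The same row was also lower with NAC in Control (-0.46), HRas-KO (-0.54) and NRas-KO (-0.52), where it did not pass, and its NAC change in DKO was not called different from that in Control. At the gene's own locus the Rplp0 row showed neither change: it measured 6.34, 6.06 and 6.13 in Control and 5.81, 5.90, 6.16, 5.89 and 6.04 in DKO, a difference of -0.22, and -0.08 between DKO+NAC and DKO. These own-locus groups overlapped. With NAC the own-locus row differed by -0.32 in Control, -0.39 in HRas-KO and -0.12 in NRas-KO, none called. The called Rplp0 differences were seen only in the row numbered between Cdh11 and Tk2. The own-locus row was dimmer, with a mean level of 5.99 against 8.75, and cannot tell whether the mRNA of the gene changed.

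Read at their own locus, 2 of 62 members were called in DKO against Control (3.83% of the 22174 genes then tested): Rps25 and Rpl27, a large subunit protein. The own-locus Rpl27 row measured 5.96, 6.14 and 5.94 in Control and 5.54, 5.76, 5.60, 5.71 and 5.69 in DKO. All DKO arrays were below all Control arrays, a difference of -0.35 ± 0.10 (adjusted p = 0.0412). In DKO+NAC it measured 6.05, 6.21, 5.77 and 6.02, higher than in DKO by 0.35 ± 0.09 (adjusted p = 0.00973, and 0.0212 without DKO+NAC replicate 4). Both Rpl27 comparisons share the untreated DKO arrays. The brighter Rpl27 row, placed elsewhere, was not called (-0.15 ± 0.09 in DKO). Without Control replicate 1, 2 or 3, or without DKO replicate 5, no member was called by the rule in DKO against Control. Markers of other cell types also differed between DKO and Control. Of 14 lung epithelium markers 2 were lower, Etv5 (-1.18 ± 0.15) and Lamp3 (-0.52 ± 0.15), and their mean lay at 10.05 to 10.22 in DKO and 10.24 to 10.36 in Control. Of 7 endothelial markers Kdr (-0.95 ± 0.15) and Tie1 (-0.56 ± 0.15) were lower and Tek (0.62 ± 0.14) higher, and of 7 mesenchymal markers Tcf21 was lower (-0.69 ± 0.18). Of 6 erythroid markers 1 was called, embryonic Hbb-y (1.15 ± 0.28, adjusted p = 0.0189), and their mean lay at 5.77 to 6.47 in DKO and 5.38 to 5.79 in Control. Their part in the member values was not tested.

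**Figure D1:**
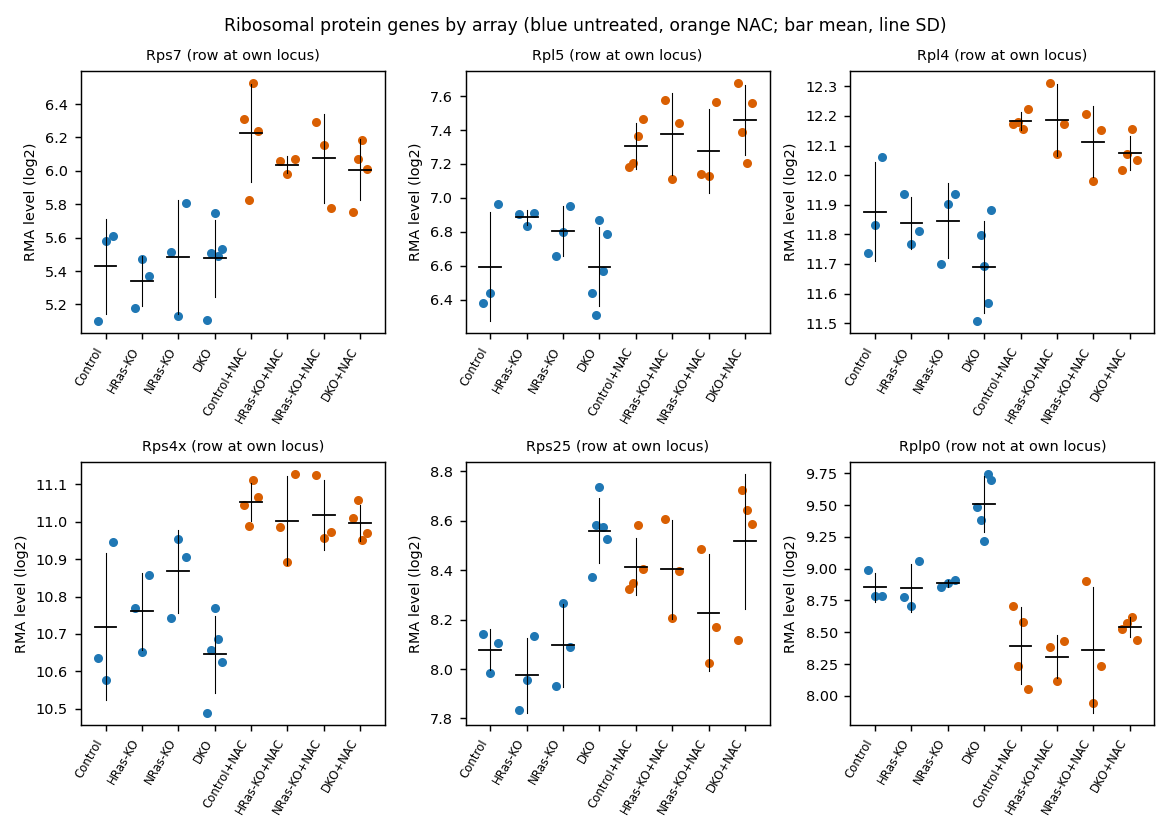
RMA levels (log2) of 6 ribosomal protein genes on each array, by group, with untreated groups in blue and NAC groups in orange; short bars are group means and vertical lines 1 SD. Rpl5 and Rpl4 lie higher on every NAC array than on the untreated arrays of the same genotype, Rps25 is highest among untreated groups in DKO, and the Rplp0 row, not at its own locus, measures 9.22 to 9.75 in DKO and 8.44 to 8.62 in DKO+NAC.

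NAC was accompanied by more calls, among the members and among all genes. In Control 8 members were higher and 4 lower with NAC (17.6% of members), where 13.5% of all genes were called, 7.86% higher and 5.68% lower. HRas-KO had 8 higher and 1 lower (13.2%), against 11.8% of all genes, 6.73% higher and 5.1% lower. NRas-KO had 1 higher and 1 lower (2.94%), against 6.42%, 2.86% higher and 3.56% lower. DKO had 9 higher and 2 lower (16.2%), against 12.2%, 5.74% higher and 6.46% lower. Leaving out 1 array gave 4 to 12 members in Control (4 without Control replicate 2), 1 to 10 in HRas-KO (1 without HRas-KO+NAC replicate 1, 4 without HRas-KO replicate 2, 5 without HRas-KO replicate 3 or HRas-KO+NAC replicate 3), 1 to 3 in NRas-KO (1 without NRas-KO replicate 2) and 9 to 12 in DKO. Without DKO+NAC replicate 4 the DKO counts were again 9 higher and 2 lower. Shares this near the background are no result about the members. The medians of the members were 0.08, 0.13, 0.02 and 0.07 in the 4 genotypes, in the order above, against 0.02, 0.02, 0.03 and 0.02 over all genes. In all, 20 members (29.4%) were called in at least 1 of the 4 comparisons, which share no arrays, against 24.8% of all genes. Of the 10 members called in 2 or more, 0 were called in opposite directions, and of the 2439 such genes 22 were. One was called in 4 comparisons (Rps28), 2 in 3 (Rpl4 and Rps7), 7 in 2 and 10 in 1. Calls in 2 or more comparisons made up 14.7% of the members and 11% of all genes.

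Read at their own locus, 37, 38, 35 and 41 of 62 members had positive NAC differences in Control, HRas-KO, NRas-KO and DKO. Of all genes, read from their brightest rows, 53.7%, 53.3%, 55.5% and 53.4% were positive. Own-locus calls were 7 higher and 1 lower of 62 in Control (12.9%, against 13.5% of all genes), 8 and 0 in HRas-KO (12.9%, against 11.9%), 0 and 1 in NRas-KO (1.61%, against 6.42%) and 10 and 0 in DKO (16.1%, against 12.2%). These shares are again no result about the members. The DKO counts were the same without DKO+NAC replicate 4. The lower ones were Rpl26 in Control and the own-locus row of Rpl29 in NRas-KO. Rpl21, whose brightest row lay elsewhere, was higher at its own locus by 0.39 ± 0.13 in Control and 0.52 ± 0.11 in DKO (adjusted p = 0.0364 and 0.00258, and in DKO 0.42 ± 0.11 without DKO+NAC replicate 4).

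Rps7, a small subunit protein that also binds Mdm2, showed one of the larger own-locus differences. It measured 5.10, 5.58 and 5.61 in Control and 6.31, 5.83, 6.53 and 6.24 in Control+NAC, and 5.18, 5.47 and 5.37 in HRas-KO against 6.06, 5.98 and 6.07 in HRas-KO+NAC. In DKO it measured 5.11, 5.51, 5.75, 5.49 and 5.53, and in DKO+NAC 5.75, 6.07, 6.18 and 6.01. NAC arrays were above all untreated arrays of their genotype in these 3 genotypes, narrowly so in DKO. The differences were 0.80 ± 0.17, 0.70 ± 0.18 and 0.53 ± 0.15 (adjusted p = 0.00273, 0.0135 and 0.0208). Fits without 1 array kept these calls in 7 of 7, 4 of 6 and 6 of 9. In NRas-KO the groups overlapped, at 5.51, 5.13 and 5.81 against 6.29, 6.15 and 5.78, a difference of 0.59 ± 0.18 that did not pass (adjusted p = 0.0526).

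Rps4x, the X-linked form of protein S4, measured 10.64, 10.58 and 10.94 in Control and 11.05, 10.99, 11.11 and 11.07 in Control+NAC. In DKO it measured 10.49, 10.66, 10.77, 10.69 and 10.62, and in DKO+NAC 11.01, 11.06, 10.95 and 10.97. The groups were apart in both genotypes, with differences of 0.33 ± 0.09 and 0.35 ± 0.08 (adjusted p = 0.0177 and 0.00519). Rps27, which carries a zinc finger, was higher with NAC in Control, at 7.36 to 7.56 against 6.80 to 7.22 (0.49 ± 0.15, adjusted p = 0.0348), a call kept in 3 of 7 fits without 1 array. Its differences in the other genotypes were -0.06, 0.23 and -0.03 and were not called. Rps6, the substrate of the S6 kinases, has no row at its own locus. Its row stayed between 12.2 and 12.5 on all arrays, with differences of -0.03, 0.02, 0.04 and 0.03.

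Rpl5 binds 5S rRNA with Rpl11 and delivers it to the large subunit. It measured 6.38, 6.44 and 6.97 in Control and 7.18, 7.21, 7.37 and 7.47 in Control+NAC. In DKO it measured 6.44, 6.31, 6.87, 6.57 and 6.79, and in DKO+NAC 7.68, 7.39, 7.20 and 7.56. Every NAC array was above every untreated array in both genotypes, by 0.71 ± 0.15 and 0.86 ± 0.14 on average (adjusted p = 0.00286 and 0.000168). The groups were also apart in HRas-KO and NRas-KO, where 0.49 ± 0.17 and 0.47 ± 0.17 did not pass (adjusted p = 0.0511 and 0.0898). Rpl11, its partner, had differences of 0.03, -0.34, -0.12 and 0.23 in Control, HRas-KO, NRas-KO and DKO, none of them called.

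Rpl4, whose loop lines the exit tunnel of the large subunit, measured 11.74, 11.83 and 12.06 in Control and 12.17, 12.18, 12.16 and 12.22 in Control+NAC. In DKO it measured 11.51, 11.80, 11.69, 11.57 and 11.88, and in DKO+NAC 12.02, 12.07, 12.15 and 12.05. Groups did not overlap in any of the 4 genotypes, and the differences were 0.31 ± 0.10, 0.35 ± 0.11, 0.27 ± 0.11 and 0.38 ± 0.09. The NRas-KO value did not pass (adjusted p = 0.143), and leaving out 1 array kept the Control call in 1 of 7 fits and the HRas-KO call in 2 of 6. The Rpl4, Rpl5, Rpl6l and Rps4x calls in DKO were kept in 9 of 9. Fewer fits kept the Rps4x call in Control (5 of 7) and the Rpl6l call in HRas-KO (4 of 6). Rpl27a was higher in HRas-KO (0.48 ± 0.14) and DKO (0.52 ± 0.11), Rpl10a and Rpl37a in HRas-KO (0.44 ± 0.14 and 0.49 ± 0.16) and Rpl22 in DKO (0.35 ± 0.09). The Rpl10a and Rpl37a calls were each kept in 1 of 6 fits without 1 array, and the HRas-KO call of Rpl27a in 3 of 6. Rpl26 was lower with NAC in Control, at 5.89, 6.28 and 6.32 against 5.55, 5.63, 5.52 and 5.72 with NAC, a difference of -0.56 ± 0.14 (adjusted p = 0.00708). Its difference was -0.32 ± 0.15 in HRas-KO (adjusted p = 0.166) and 0.00 in both NRas-KO and DKO, and the DKO change minus the Control change was 0.56 ± 0.18 (adjusted p = 0.16).

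Rplp1, an acidic protein of the stalk, was higher with NAC in DKO by 0.36 ± 0.10 (adjusted p = 0.0194), although DKO+NAC replicate 1 (11.32) overlapped the DKO arrays (10.98 to 11.36). The call was kept in 6 of 9 fits without 1 array and lost in 5 of 13 other settings, and the lowest difference among all of them was 0.07. Its differences elsewhere were 0.31, 0.37 and 0.21 and were not called. Rplp2, its partner, was not called in any comparison, with differences of -0.24, -0.06, 0.15 and 0.07.

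Rpl6 had NAC differences of 0.16, -0.13, 0.09 and 0.44 in Control, HRas-KO, NRas-KO and DKO, none of them called. The Rpl6 row had a mean level of 5.50 and the Rpl6l row 10.11. Whether the Rpl6l row also reads Rpl6 mRNA was not tested. Rpl6l, listed in RefSeq as a pseudogene, was called higher in HRas-KO and DKO. It measured 9.90, 9.94 and 9.89 in HRas-KO and 10.51, 10.26 and 10.60 in HRas-KO+NAC, a difference of 0.55 ± 0.14 (adjusted p = 0.0119). In DKO it measured 9.63, 9.56, 10.21, 9.49 and 9.56, and in DKO+NAC 10.36, 10.42, 10.47 and 10.27, a difference of 0.69 ± 0.12 (adjusted p = 0.000326). The groups were apart in both. Rpl32l was higher in Control (0.51 ± 0.16, groups overlapping) and HRas-KO (0.70 ± 0.17), at levels of 3.27 to 4.28 on these arrays. Fits without 1 array kept the Control call in 2 of 7 and the HRas-KO call in 6 of 6. None of the other 7 paralogs was called in any comparison, among them Rpl3l, known from muscle, Rpl10l and Rpl39l, known from testis, and Rps27l, a p53 target.

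Among the brightest rows, every called decrease other than that of Rpl26 came from a row placed away from the gene's own locus. The brightest Rps28 row measured 10.76, 10.79 and 10.77 in Control and 10.30, 10.07, 10.32 and 9.96 in Control+NAC, and all 4 genotypes had lower levels with NAC and no overlap. The differences were -0.61 ± 0.15, -0.60 ± 0.16, -0.77 ± 0.16 and -0.57 ± 0.13 (adjusted p = 0.00803, 0.0161, 0.00469 and 0.00515). Fits without 1 array kept the calls in 7 of 7, 3 of 6, 6 of 6 and 9 of 9. The own-locus Rps28 row was dim, with a mean level of 4.90 against 10.40 for the brightest row. It differed by -0.05, 0.29, 0.13 and 0.27, none called. Values from so dim a row cannot tell whether the mRNA of the gene fell. Rps18 was higher by 0.88 ± 0.25 in Control and 1.03 ± 0.27 in NRas-KO from its brightest row (mean level 7.25). Its own-locus row (mean level 5.32) differed by -0.09 and -0.10. Rpl29 fell by 0.46 in Control (± 0.10, adjusted p = 0.00257), and its own-locus row had a difference of -0.46 that did not pass there. Rpl28 fell by 0.36 in Control (kept in 3 of 7 fits without 1 array), and Rpl15 rose by 0.46 in Control (6 of 7) and 0.48 in HRas-KO (3 of 6). Neither has a row at its own locus. The brightest Rpl7 row, also placed elsewhere, was higher with NAC in DKO by 0.67 ± 0.16 (adjusted p = 0.00623), with overlapping groups, and by 0.83 ± 0.16 without DKO+NAC replicate 4.

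**Figure D2:**
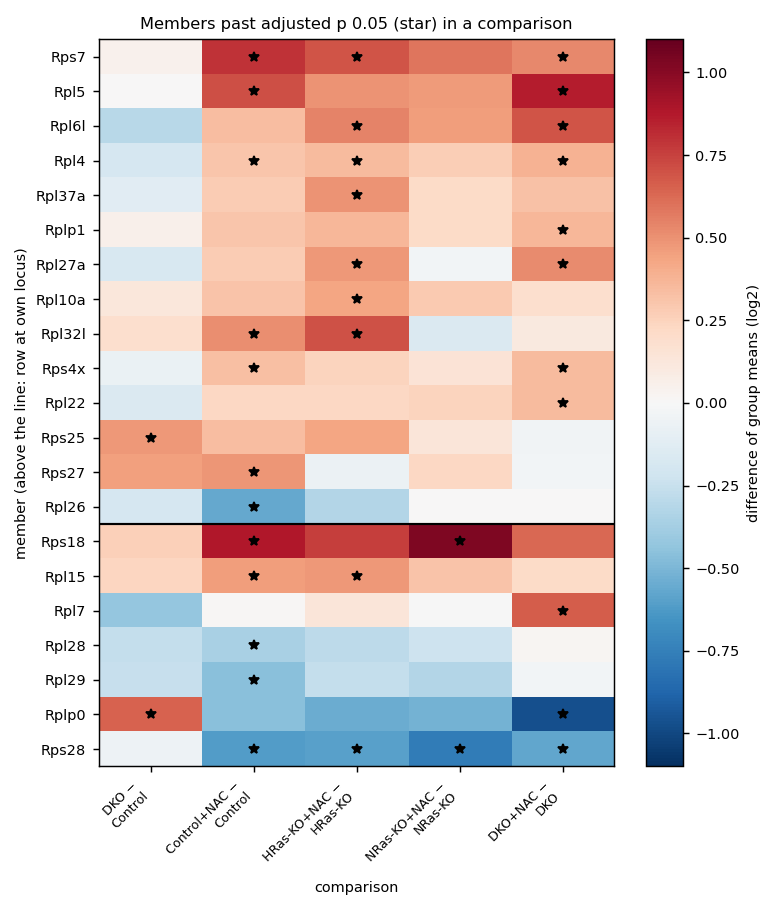
Differences of group means (log2, colour) for the 21 members called in any of 5 comparisons, with stars at an adjusted p under 0.05; members above the line were read at their own locus. Above the line the starred NAC cells are positive except Rpl26 in Control, and below it Rps28 is negative in all 4 NAC columns.

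**Figure D3:**
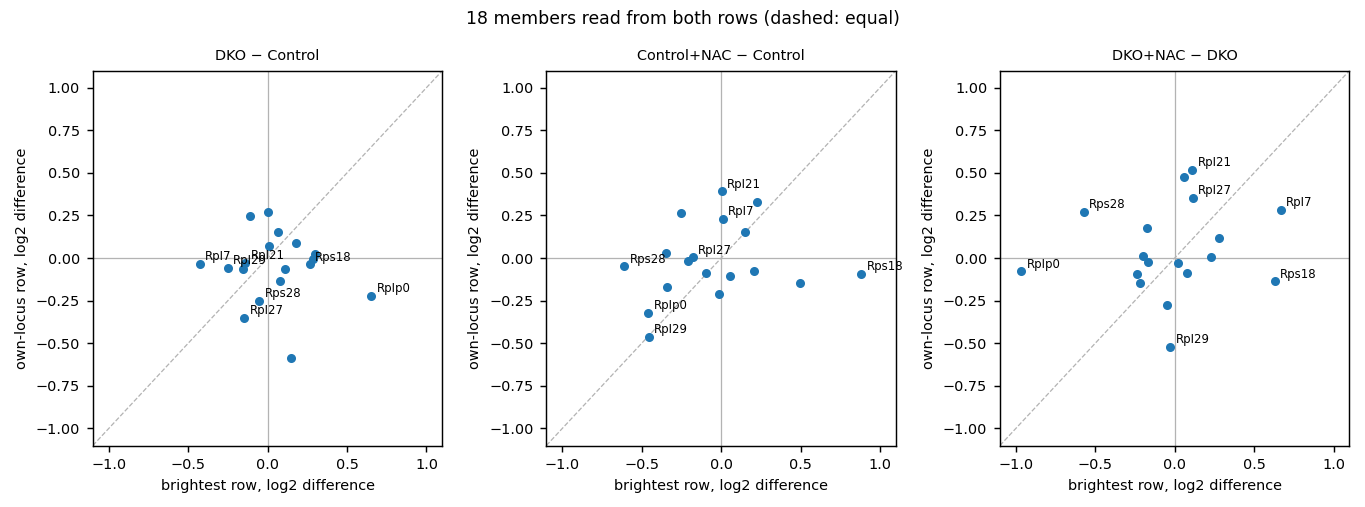
Differences (log2) from the brightest row, placed elsewhere, and from the own-locus row of the same gene for 18 members in 3 comparisons. Rplp0 lies far from the dashed line of equal values in DKO against Control and in DKO+NAC against DKO, but not in Control+NAC against Control (-0.46 and -0.32). Rps28 and Rps18 lie far from it in both NAC panels. Other genes also lie off the line, such as Rpl13 in DKO against Control (0.15 and -0.58).

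Under NAC, no member was called between any knockout and Control+NAC, where 0% of all genes were called in each of the 3 comparisons. At an unadjusted p under 0.05 there were 1, 6 and 4 members in the comparisons of the HRas-KO, NRas-KO and double knockout lungs, respectively (1408, 2321 and 2116 genes). The smallest p-values belonged to Rps27 (-0.33 ± 0.15), Rps23 (0.67 ± 0.19) and Rpl26 (0.37 ± 0.13), with adjusted p-values of 0.77, 0.238 and 0.348. No member's NAC change differed from that of Control in a test of the difference itself either. For HRas-KO and NRas-KO 0% of genes were called and 3 and 2 members had an unadjusted p under 0.05. For DKO 0.388% of genes were called and 8 members had an unadjusted p under 0.05, led by Rpl29 (0.43 ± 0.13, adjusted p = 0.132), whose brightest row is not at its own locus. Without DKO+NAC replicate 4 no member was called either in DKO+NAC against Control+NAC or in the NAC change of DKO, with 6 and 8 members at an unadjusted p under 0.05. The smallest p was then that of the Rpl7 row placed elsewhere, in the NAC change (0.82 ± 0.23, adjusted p = 0.102).

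Levels of some marker lists differed between NAC and untreated arrays. The mean of 10 skeletal muscle markers lay between 5.82 and 7.53 on untreated arrays and between 5.47 and 5.80 on NAC arrays, with 4 of 10 lower in DKO (3 without DKO+NAC replicate 4) and 1 of 10 (Actn2) in each other genotype. Of 9 cell cycle genes 1 (Pcna) was called, in Control and HRas-KO, and the median difference of the 9 was 0.54, 0.39, -0.21 and -0.05 in Control, HRas-KO, NRas-KO and DKO. With the muscle mean as a covariate the member counts were 5 higher and 4 lower in Control, 8 and 3 in HRas-KO, 0 and 1 in NRas-KO and 7 and 2 in DKO. The mean of 14 lung epithelium markers was lower in Control+NAC (10.07 to 10.16) than in Control (10.24 to 10.36), in HRas-KO+NAC (up to 10.10) than in HRas-KO (10.34 to 10.36) and in NRas-KO+NAC (10.06 to 10.16) than in NRas-KO (10.22 to 10.36). In DKO+NAC (9.95 to 10.16) and DKO (10.05 to 10.22) it overlapped. Of the 14, 4, 4 and 2 were lower in Control, HRas-KO and NRas-KO, and in DKO 1 was higher and 2 lower (1 and 0 without DKO+NAC replicate 4). The part of cell cycle and epithelial genes in the member values was not tested.

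Other genes of translation and ribosome assembly were read the same way. Of all genes, 13.5%, 11.8%, 6.42% and 12.2% were called with NAC in Control, HRas-KO, NRas-KO and DKO. Here and in the next paragraph, a list count near these shares is no result about the list. Of 17 measured TOP-mRNA translation factors, 0 were called with NAC in Control, HRas-KO and NRas-KO, while in DKO 5 were higher and 1 lower, with Eef1a1 (0.31 ± 0.07), Btf3 (0.43 ± 0.09) and Pabpc1 (0.35 ± 0.11) higher. The lower one, Eif3l, was the one called in untreated DKO, where it was higher by 0.72 ± 0.13 (adjusted p = 0.00222). With NAC it fell by 0.73, measured from the same untreated DKO arrays. Its NAC change in DKO differed from that in Control by -0.88 ± 0.18 (adjusted p = 0.0345), which did not pass without DKO+NAC replicate 4 (-0.82 ± 0.19, adjusted p = 0.0541). Of 14 mTOR and S6 kinase genes, NAC arrays had 2 higher and 5 lower in Control, HRas-KO and NRas-KO and 3 higher and 4 lower in DKO (2 and 4 without DKO+NAC replicate 4). Tsc2, an inhibitor of mTOR, fell by 0.77 in DKO, 0.67 in NRas-KO, 0.63 in HRas-KO and 0.62 in Control. Larp1, which holds TOP mRNAs back, fell by 0.50 in Control, 0.66 in HRas-KO and 0.60 in NRas-KO. Rps6ka3, a ribosomal S6 kinase, was higher by 0.60 in Control, 0.75 in NRas-KO and 0.49 in DKO. Mtor itself was called lower with NAC in DKO (-0.48), NRas-KO (-0.48) and HRas-KO (-0.51). Eif4ebp2 was called lower with NAC in Control (-0.86) and HRas-KO (-0.87), and in untreated DKO against Control (-0.50). Rheb was called higher with NAC in DKO (0.57 ± 0.11) with DKO+NAC replicate 4 kept in. Genes were picked from the up to 4 called ones with the smallest p in a comparison, and not all of these are named. A genotype not given for a gene may also hold a call.

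Of 6 measured genes of p53 signalling, Ccng1 and Mdm2, both p53 targets, were higher with NAC in Control (0.86 ± 0.19 and 0.47 ± 0.13) and HRas-KO (0.71 ± 0.20 and 0.68 ± 0.14), and Ccng1 also in DKO (0.73 ± 0.17), where 1 gene was higher and 1 lower, or 2 and 1 without DKO+NAC replicate 4. Cdkn1a, another target, fell by 0.62 in Control and 0.84 in DKO. Among 39 factors of pre-rRNA processing, 3 were higher and 1 lower in Control, 2 and 3 in HRas-KO, 0 and 0 in NRas-KO and 2 and 1 in DKO (2 and 0 without DKO+NAC replicate 4). Nop10, a protein of H/ACA snoRNPs, was lower in untreated DKO (-0.52 ± 0.14, adjusted p = 0.0285) and higher with NAC in Control (0.46 ± 0.14, adjusted p = 0.0305) and DKO (0.72 ± 0.12). Its comparisons share the untreated Control or DKO arrays. Nip7 was higher with NAC in Control (0.42 ± 0.13), HRas-KO (0.50 ± 0.14) and DKO (0.48 ± 0.12). Of 71 mitochondrial ribosomal proteins, 2 were higher and 1 lower with NAC in Control, 8 and 1 in HRas-KO, 1 and 1 in NRas-KO and 1 and 6 in DKO (2 and 5 without DKO+NAC replicate 4). Of 15 RNA polymerase I genes, 0 were called with NAC in NRas-KO, 1 each in DKO and Control and 2 in HRas-KO. Rpsa and Fau, ribosomal components outside the naming rule, were not called in any comparison.

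Small nucleolar RNAs inside the members were read from rows of their own. RefSeq places 41 in 21 members, and 12 of them have a row with 1 symbol. In untreated DKO all 12 were positive against Control, 5 were called higher, and their median was 0.99. The 12 also stood apart between arrays of 1 group: their median deviation from their own means was 0.26 on Control replicate 1 and -0.48 and -0.79 on the other Control arrays, 0.01 on HRas-KO replicate 2 against -0.92 and -0.89, and 0.25 on NRas-KO replicate 1 against -0.44 and 0.18. The first array named in each genotype has the code start C118. In DKO it lay between 0.33 and 0.96, above every Control array. What separates these arrays was not tested. Snord15a in Rps3 measured 8.09, 6.89 and 7.01 in Control and 8.82, 8.48, 9.27, 8.71 and 8.36 in DKO. Snord73a in Rps3a1 measured 7.54, 6.97 and 6.80 and, in DKO, 7.98, 8.20, 8.45, 7.95 and 8.11. Neither pair of groups overlapped, and the differences were 1.40 ± 0.27 and 1.03 ± 0.23 (adjusted p = 0.00335 and 0.00991) while the hosts Rps3 and Rps3a1 differed by 0.16 and -0.16. The rows that stand for the hosts Rps3a1, Rpl39, Rpl3 and Rpl23a are not at their own locus.

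Snora69 in Rpl39 was higher by 1.82 ± 0.44, Snord72 in Rpl37 by 1.40 ± 0.36 and Snord16a in Rpl4 by 1.12 ± 0.28, and none of their hosts was called. Of 62 snoRNAs outside the members, 22 were higher and 1 lower in DKO, with a median of 0.60. In HRas-KO and NRas-KO none of the 12 was called (medians of -0.25 and 0.33, with all 12 positive in NRas-KO), and under NAC none was called between DKO and Control (median 0.09). NAC itself had 3 of 12 higher and 1 lower in Control, 3 and 1 in HRas-KO, 1 and 0 in NRas-KO and 0 and 3 in DKO (0 and 2 without DKO+NAC replicate 4). Of the 62 others 11 were higher and 2 lower in Control, 12 and 0 in HRas-KO, 1 and 4 in NRas-KO and 4 and 16 in DKO (3 and 15 without DKO+NAC replicate 4). Snord15a was higher in Control, HRas-KO and NRas-KO (1.36, 1.43 and 1.19), while Snora69 fell by 1.82 in DKO. The extraction used a column step after TRIZOL, and the recovery of small RNA on each array was not tested.

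**Figure D4:**
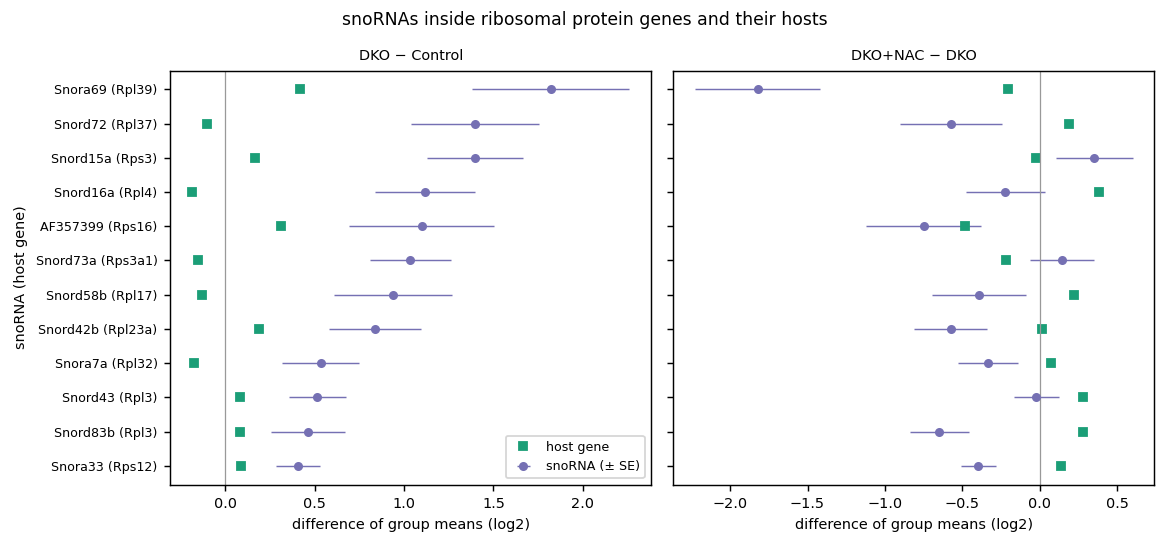
Differences of group means (log2) of 12 snoRNAs (circles, ± SE) and of the ribosomal protein genes that hold them (squares). In DKO against Control all circles lie right of 0, and Snora69 turns from 1.82 to -1.82 between the panels, which share the untreated DKO arrays.

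Spread between animals was like that of other genes for most members. The median residual SD was 0.178 for members and 0.171 for all genes. On each array the median deviation of the members from their own means lay between -0.12 and 0.18, and untreated and NAC arrays of each genotype overlapped in it. Rps13 stood apart with a residual SD of 1.86, where the next member had 0.367. Its row had 14 arrays between 2.82 and 3.97 and 14 between 6.10 and 8.32, and no array in the gap of 2.13 between them. Only 5 of the 22180 genes, Rps13 included, had a gap this wide with at least 6 arrays on each side.

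Both levels of the Rps13 row occurred within most groups. Arrays of the code starts H058, T445 and T453 held both. All arrays of C118 were at the upper level, and all of G185, T195 and T317 at the lower. Low arrays numbered 0 of 3 in Control, 2 of 3 in HRas-KO, 1 of 3 in NRas-KO, 3 of 5 in DKO, 3 of 4 in Control+NAC, 0 of 3 in HRas-KO+NAC, 2 of 3 in NRas-KO+NAC and 3 of 4 in DKO+NAC. Of 3 rows shared by several symbols that include Rps13, the one with the strongest correlation, picked for it, lay at 8.33 to 9.23 on the low arrays and 5.17 to 8.53 on the others. The other two overlapped more widely, at 4.25 to 5.58 against 4.36 to 5.45 and at 5.53 to 7.02 against 6.35 to 7.19. DKO replicate 5 and DKO+NAC replicate 3 had the highest Rps13 row (8.32 and 8.02) and the lowest levels of the picked row (5.78 and 5.17). Group differences of Rps13 (-2.54 ± 1.25 in Control with NAC) followed how many arrays of a group were at each level, and none was called. What separates the arrays was not tested.

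**Figure D5:**
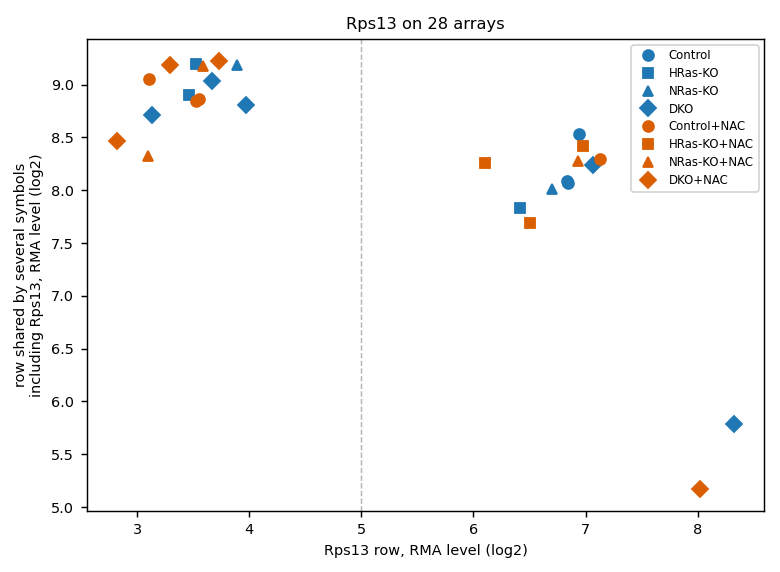
RMA levels (log2) of the Rps13 row and of a row shared by several symbols including Rps13, 1 point for each of 28 arrays, blue untreated and orange NAC. The arrays fall into a set at 2.82 to 3.97 and a set at 6.10 to 8.32, and 2 of the latter have the lowest levels of the shared row.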

How the data were processed

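Gene expression was measured in 28 newborn mouse lungs, 1 animal each. The authors deposited log2 values of 1-colour whole-transcript arrays made by RMA. Per the submitters' processing notes affy was used (version not given). The array number, not a depth, limits precision. Rows were named through the platform annotation: 23521 of 41345 had 1 symbol, 1814 several and 16010 were unlisted. The brightest row of each of 22180 genes entered a linear model with 8 groups in limma 3.58.1 (R 4.3.3, 20 residual and 5.95 prior degrees of freedom), and p-values were Benjamini-Hochberg adjusted over all of them in each of 13 comparisons. The fit was tested on simulated data. Members, lists and tests were chosen with earlier results of these data known. Named were called members with groups that do not overlap (up to 10 in each direction), the 3 smallest p-values where none was called, certain well-known members and paralogs, up to 4 called genes of each list and the snoRNAs with the smallest p. Rpl27, Rpl21, Rps13's levels and the own-locus reading were singled out after their values were seen. Row places come from the order of row numbers, with RefSeq GRCm38.p6 for gene positions. Same-numbered arrays of different groups correlated at 0.0295 on average over 87 pairs (30 over 0.1), so numbers do not pair animals. For lists, snoRNAs and own-locus rows, fits without DKO+NAC replicate 4 were added after seeing the data. Alternatives covered the row for a gene, filter, normalization, moderation, weights, arrays fitted, blocks and each array left out.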

Additional observations from a re-analysis of the deposited data

Results flagged for a closer look

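In groups of 4 or 5 arrays, 9 of 108 sets of a named gene and a group held 1 array far from the rest by Dixon's criterion, which chance alone flags in about 1 of 20. Rpl10a lay at 9.764 on DKO replicate 1 and Rpl10l at 3.626 on DKO replicate 3. Rpl28 (row not at its own locus) lay at 11.74 and Rpl7l1 at 5.505 on DKO+NAC replicate 4, the array whose Nras level goes against its label. Rpl3 (row not at its own locus) lay at 8.704 and Rplp2 at 4.789 on DKO+NAC replicate 1. Rpl6l lay at 10.21 on DKO replicate 3 and at 10.49 on Control+NAC replicate 3. Rps13 lay at 7.125 on Control+NAC replicate 4, the only array of its group at the upper level.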

How the results depend on the processing

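Of 288 recomputed counts of called members, 267 stayed within 1.5 times the reported count. These include the comparisons with no called member, where a count of 0 that stayed 0 was taken as unchanged. The 2 members called in DKO against Control became 1 with the mean of a gene's rows, 1 after quantile normalization again, 0 with only the arrays of the groups compared and 1 with the replicate number as a block; leaving out 1 array gave 0 to 2. The count for NRas-KO with NAC (2) became 4 without the dimmest 40% of rows, 5 with array weights, 0 with only the arrays compared, 1 at the own locus and 1 with the muscle covariate, and 1 to 3 without 1 array (1 without NRas-KO replicate 2). HRas-KO with NAC (9) became 17 with array weights and 1 to 10 without 1 array: 1 without HRas-KO+NAC replicate 1, 4 without HRas-KO replicate 2 and 5 without HRas-KO replicate 3 or HRas-KO+NAC replicate 3. Control with NAC (12) became 4 to 12, with 4 without Control replicate 2, and DKO with NAC (11) 9 to 12. NRas-KO+NAC against Control+NAC gave 0 to 1, the 1 without Control+NAC replicate 4. The cause was not tested. The replicate block changed no other count of members by over 1.5 times. Of 728 recomputed differences of called members, 604 kept their call, 6 changed sign and the others lost the call. All 6 were at the own locus: Rplp0 in DKO against Control (-0.2215), Rps18 with NAC in Control (-0.09398) and NRas-KO (-0.1004), and Rps28 with NAC in HRas-KO (0.2851), NRas-KO (0.1328) and DKO (0.2723). Code start as a fixed block could not be fitted for DKO against Control or for NAC. Own-locus rows, a fit over all rows of the table and the muscle covariate were added after seeing the data.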

Other observations

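Rows shared by several symbols, at least 1 of them of the ribosomal protein kind, numbered 57 and were not used for members. In DKO against Control 5 of these rows were higher and 1 lower (2.75% of all rows called). With NAC 2 were higher and 5 lower in Control (9.93%), 2 and 3 in HRas-KO (8.36%), 0 and 2 in NRas-KO (4.41%) and 6 and 6 in DKO (9.99%). Of 7 mesenchymal markers 1, 2 and 3 were lower with NAC in Control, HRas-KO and NRas-KO, and in DKO 1 was higher and 4 lower (1 and 3 without DKO+NAC replicate 4). Col1a1 differed by -1.24 ± 0.19 in DKO, -1.26 ± 0.24 in NRas-KO, -1.06 ± 0.24 in HRas-KO and -1.01 ± 0.22 in Control. Cardiac Myh6 differed by -1.35, -0.88, -0.83 and -0.86 in the same order, and all these differences passed the test.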
